A study of Homo sapiens with 9 samples.

Results

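A set of 6 genes that hypoxia-inducible factors switch on in kidney cancer was examined here for chromatin immunoprecipitation sequencing (ChIP-seq) peaks of the zinc finger protein ZNF395: VEGFA, ADM, SLC2A1, CA9, CCND1 and NDRG1. A peak was taken as a member when any of its bases lay within 25 kb of the gene's start site in the hg19 build. For CCND1, peaks from its start back to 305.9 kb upstream, the stretch that holds its distant enhancers, were added. This rule kept 104 of the 52875 peaks in the 5 lists. Of these, 42 came from GFP ChIP of tagged 786-O, 11 from GFP ChIP of parental 786-O, 11 from GFP ChIP of tagged A498, 4 from GFP ChIP of parental A498 and 36 from MYC ChIP of parental 786-O.

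The cells were 786-O and A498, established human lines from clear cell renal cell carcinoma. Tagged cells carried an eGFP sequence placed by a guide RNA at the 3′ end of ZNF395 and parental cells had no tag, so that GFP peaks of parental cells show what the GFP antibody brought down without its target. Tagged cells were made by electroporation, and the labels do not say whether they were single clones. Titles were followed where labels conflict: a cell line entry of 786-O stands beside A498 titles, and the MYC library, made with a MYC antibody, has P300 as its target entry. The series has 9 samples, 4 of them inputs with no peak list, and each list is 1 library. No comparison below therefore has a replicate check, no p-value is given, and intervals cover counting error only.

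Hypoxia-inducible factors are pairs of an oxygen-regulated alpha subunit and the constant subunit ARNT. They bind short elements, ACGTG among them, in the control regions of their targets. With oxygen present, the VHL protein marks the alpha subunits for destruction. VHL is lost in most clear cell renal carcinomas, 786-O and A498 among them, so alpha subunits made there escape this destruction. Whether each of these genes was active in the cells used was not measured here. VEGFA and ADM encode secreted factors that act on blood vessels, SLC2A1 the glucose transporter GLUT1, CA9 a surface carbonic anhydrase that regulates pH, CCND1 the cell cycle protein cyclin D1, and NDRG1 a stress-response protein. No library against a hypoxia-inducible factor was analysed here.

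The RefSeq promoter table (GRCh38.p14) holds 3 of the 6 genes. Their 250 bases before the start are shown because they contrast the gene that had no peak at its start in any list, CA9, with SLC2A1 and ADM, which did. Sequences are in lower case, 5′ to 3′ along the gene, and capitals mark a match to ACGTG on either strand. The windows lie at chr9:35673678-35673927 on the plus strand, chr1:42958869-42959118 on the minus strand and chr11:10304823-10305072 on the plus strand. These are GRCh38 positions, while all peak positions are in hg19.
CA9: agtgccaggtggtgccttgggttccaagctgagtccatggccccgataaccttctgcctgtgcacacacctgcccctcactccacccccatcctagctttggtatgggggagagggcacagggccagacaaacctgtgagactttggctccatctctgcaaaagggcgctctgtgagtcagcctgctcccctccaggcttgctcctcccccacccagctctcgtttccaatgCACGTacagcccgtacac
SLC2A1: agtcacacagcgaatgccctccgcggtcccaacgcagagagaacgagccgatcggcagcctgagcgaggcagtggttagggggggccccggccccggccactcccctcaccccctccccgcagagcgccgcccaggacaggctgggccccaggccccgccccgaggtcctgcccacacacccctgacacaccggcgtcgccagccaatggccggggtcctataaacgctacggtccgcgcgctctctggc
ADM: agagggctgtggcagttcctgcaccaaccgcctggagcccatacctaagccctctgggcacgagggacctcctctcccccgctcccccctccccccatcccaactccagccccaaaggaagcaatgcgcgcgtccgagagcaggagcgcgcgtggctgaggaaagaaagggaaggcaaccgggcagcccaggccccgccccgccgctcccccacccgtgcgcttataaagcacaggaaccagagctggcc

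CA9 had 1 match to ACGTG, on the reverse strand close to its start, and SLC2A1 and ADM had 0. Of 35116 promoters of the same length, 18.5% held a match. Other forms of the element were not counted, so 0 matches to ACGTG does not mean that no element was present. The E-box CACGTG, which contains ACGTG and is bound by MYC, occurred in none of the 3 and in 6.34% of all promoters. GCCGGCG, reported as the core of the ZNF395 site, occurred in none of the 3 and in 8.88% of all. The CA9 window held 5 CpG dinucleotides, against 24 in SLC2A1, 16 in ADM and a median of 11 over all promoters. The start used for the peak windows need not be the RefSeq start.

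GFP peaks of tagged cells occurred at all 6 genes in 786-O and in A498, but their places differed from gene to gene. In tagged A498 the only NDRG1 peak overlapped a parental A498 peak, and the only CCND1 peak lay 143.5 kb upstream. In tagged 786-O all 6 genes had a member peak, and 5 of them, all but CA9, had one over the start itself. In tagged A498 all 6 had a member peak, 5 within 25 kb, and 3 over the start (VEGFA, SLC2A1 and NDRG1). GFP peaks of parental 786-O occurred at 5 genes, with the start covered at 3, and those of parental A498 at 3 genes, with the start covered at 2. MYC had peaks at all 6 and over the start of 4. Across the genome cut into 50 kb tiles, 21.0% of tiles held a peak of tagged 786-O, 4.00% of parental 786-O, 10.2% of tagged A498, 1.29% of parental A498 and 20.5% of MYC. Among tiles with a MYC peak, 77.0% also held a tagged 786-O peak, 16.0% a parental 786-O peak, 28.6% a tagged A498 peak and 2.98% a parental A498 peak. Tiles include DNA without genes and are a description, not an expectation for genes.

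**Figure D1:**
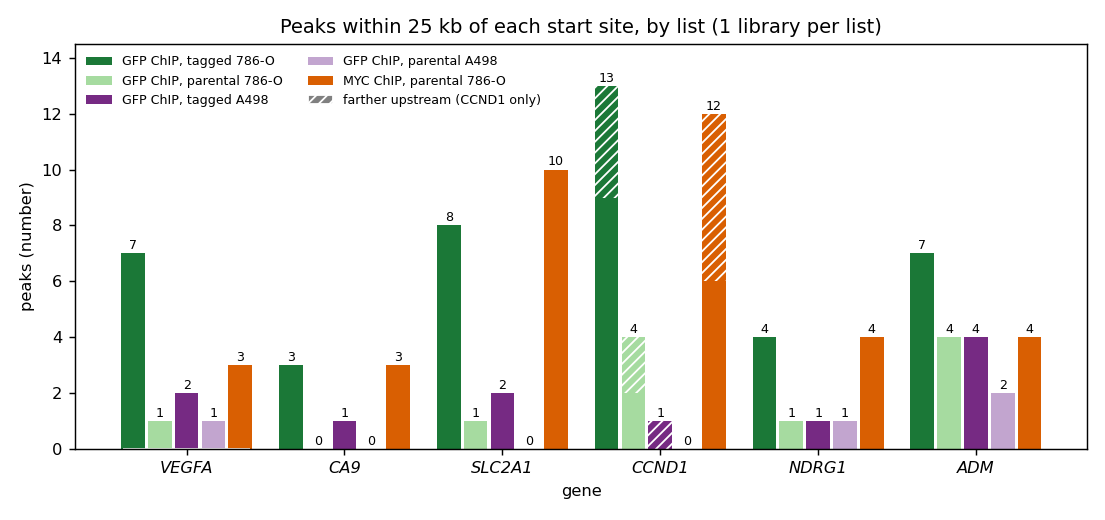
Number of member peaks (y axis) for each gene (x axis), with 1 bar per list; hatched parts are CCND1 peaks more than 25 kb from its start. With its added upstream region, CCND1 has the most peaks in tagged 786-O, with 13, and the most in MYC, with 12. Within 25 kb CCND1 has 9 in tagged 786-O and 6 in MYC, and SLC2A1 has 8 and 10. CA9 has 0 in either parental list.

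CCND1 had the largest number of tagged 786-O peaks within 25 kb of a start, 9, a number that 0.0527% of tiles reached. SLC2A1 followed with 8 (0.0956% of tiles), VEGFA and ADM with 7 each (0.160%), NDRG1 with 4 (1.14%) and CA9 with 3 (2.59%). The order in tagged A498 was another: ADM had 4 peaks (0.143% of tiles), VEGFA and SLC2A1 2 each (1.74%), CA9 and NDRG1 1 each (10.2%), and CCND1 none within 25 kb. SLC2A1 had 10 MYC peaks, which 0.0181% of tiles reached. The numbers describe 1 library each, and the longer tagged 786-O list (20034 peaks against 7718 for tagged A498) had more peaks to place.

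The deposited score of a peak, on a −log10 scale of p or q, was turned into a rank within its own list. Member peaks of tagged 786-O leaned to the weaker side. Of the 42, 26 were in the lower 50% of that list, and the median score was 10.4, against 13.1 for the whole list. The 6 that reached the top 10% were 1 at each of VEGFA, CA9, SLC2A1 and ADM and 2 at CCND1. In tagged A498, 8 of 11 were in the upper 50% and 2, at CA9 and CCND1, in the top 10%. MYC had 19 of 36 in the upper 50% and 5 in the top 10%. Parental 786-O had 2 of 11 in its top 10%, at ADM and NDRG1, and parental A498 had 0 of 4.

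**Figure D2:**
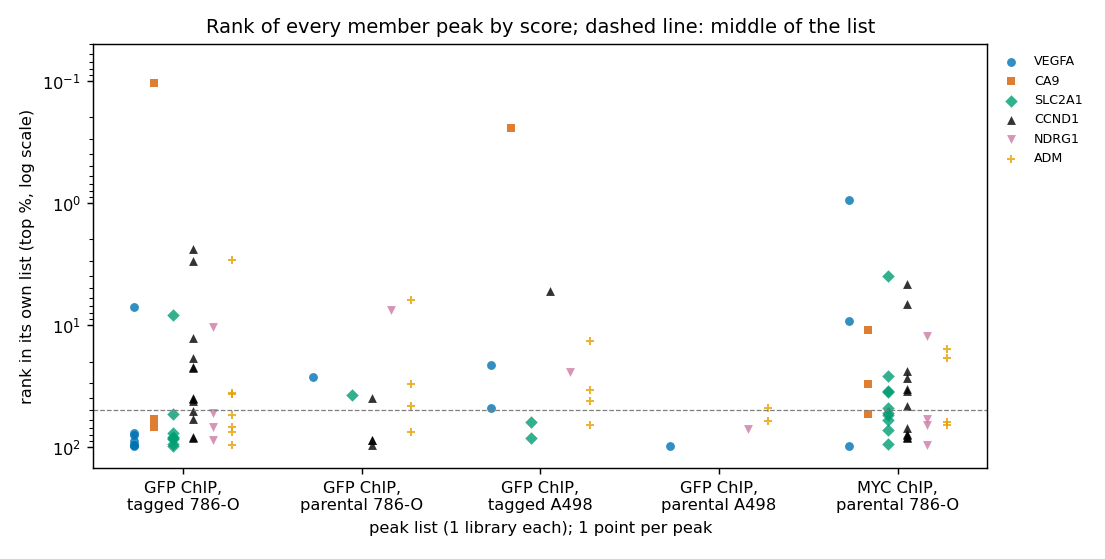
Rank of each member peak by score as a percentage of its own list (y axis, log scale, strongest at the top) in the 5 lists (x axis); 1 point per peak, marked by gene. The CA9 peak stands at 0.105% in tagged 786-O and 0.246% in tagged A498, above every other member peak of those lists.

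**Figure D3:**
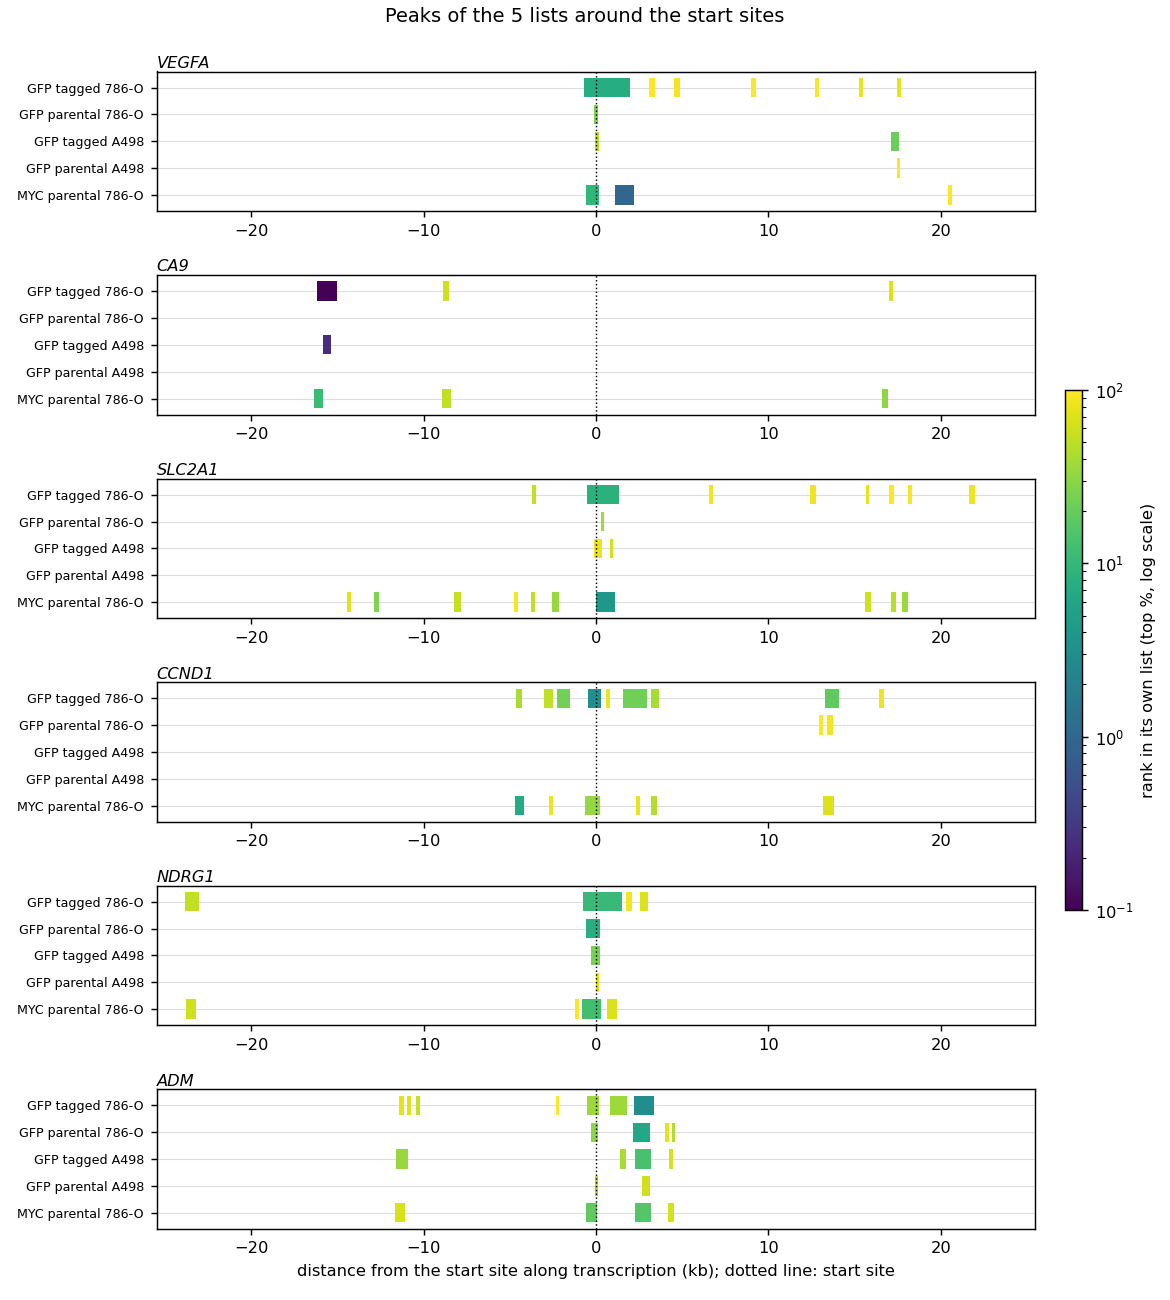
Peaks of the 5 lists (rows) by distance from each start along transcription in kb (x axis); colour gives the rank in the peak's own list, and peaks narrower than about 0.2 kb are drawn at that width. Tagged 786-O has a peak over 5 of the 6 starts, and CA9 has none in any list.

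VEGFA, which encodes the main growth factor for new blood vessels, had a broad ZNF395-eGFP peak over its start in 786-O and a ladder of weak ones in the direction of transcription. The broad peak, chr6:43737245-43739893, was 2649 bp wide, the 34th widest of the list, with a score of 55.2 and rank 1446 of 20034. It overlapped 2 MYC peaks: chr6:43737352-43738108 over the start (score 71.0, rank 1888) and chr6:43739040-43740171, which began 1094 bp downstream (score 198.7, rank 192). MYC peaks covered 60.8% of its bases. Parental 786-O also had a peak over the start, chr6:43737824-43738070 (score 10.6, rank 901 of 3361), and so had tagged A498, chr6:43737895-43738100 (score 5.77, rank 3700 of 7718). Parental A498 had none there.

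The other 6 tagged 786-O peaks of VEGFA lay on the downstream side. The highest were chr6:43755436-43755652, 17.5 kb from the start (score 6.77, rank 15375), and chr6:43753194-43753423, 15.2 kb from it (score 6.24, rank 15967). The remaining 4 lay 3.10 to 12.7 kb from the start with scores of 2.44 to 4.67, ranks between 17831 and 19851 and no MYC peak. At 17.1 kb tagged A498 had its higher VEGFA peak, chr6:43755076-43755532 (score 9.43, rank 1646). Parental A498 had a peak that overlapped it in part, chr6:43755444-43755555, with a score of 2.06 and rank 1554 of 1563, near the end of that list. One more MYC peak, chr6:43758351-43758590, was weak (score 3.63, rank 19750) and had no GFP peak. At VEGFA, then, the start carried the strong signal of tagged 786-O, and the more distant site ranked higher in tagged A498.

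ADM, the gene of the vessel-relaxing peptide adrenomedullin, had its strongest ZNF395-eGFP peak downstream of the start, at a place where every list had a peak. In tagged 786-O this was chr11:10328838-10330010, 2196 to 3368 bp from the start, with a score of 81.0 and rank 588. Tagged A498 had chr11:10328915-10329838 (score 12.9, rank 1044) and MYC had chr11:10328928-10329811 (score 49.3, rank 3210). The parental peaks there were chr11:10328765-10329798 in 786-O (score 32.4, rank 209 of 3361) and chr11:10329312-10329774 in A498 (score 9.76, rank 961 of 1563). The parental 786-O peak was thus among the highest 10% of the untagged list.

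The ADM start itself had a tagged 786-O peak, chr11:10326093-10326791, with a score of 19.0 and rank 7279. It had peaks in MYC (chr11:10326080-10326717, score 43.4, rank 3780), parental 786-O (chr11:10326379-10326784, score 9.52, rank 1034) and parental A498 (chr11:10326572-10326763, score 15.0, rank 753). Tagged A498 had no peak over the ADM start, although the parental A498 peak there was the highest of the 4 parental A498 member peaks.

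Between these sites lay 1 that was found only with the tag among the 5 lists. It was chr11:10327454-10328421 in tagged 786-O (score 18.7, rank 7363) and chr11:10328009-10328359 in tagged A498 (score 6.40, rank 3254), 506 and 568 bases short of the nearest MYC peak. Upstream, 10.9 to 11.6 kb from the start, tagged A498 had chr11:10315062-10315728 (score 7.17, rank 2652), which overlapped 2 weak tagged 786-O peaks and a MYC peak, chr11:10314985-10315583 (score 11.1, rank 13292). Those 2 tagged 786-O peaks were among the 4 of ADM other than its 3 highest, all upstream, with scores of 3.14 to 11.4. Downstream, the MYC peak chr11:10330826-10331192 (score 12.0, rank 12603) overlapped a tagged A498 peak, chr11:10330884-10331102 (score 4.58, rank 5070), and 2 parental 786-O peaks, chr11:10330689-10330832 (score 4.38) and chr11:10331067-10331209 (score 6.98), but no tagged 786-O peak.

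SLC2A1, whose product GLUT1 carries glucose into the cell, had a broad peak over its start in tagged 786-O and more MYC peaks than ZNF395-eGFP peaks. The start peak, chr1:43423488-43425343, was 1856 bp wide with a score of 51.8 and rank 1670. The MYC peak chr1:43423743-43424838 (score 115.9, rank 799) began 9 bp downstream of the start and ran to 1104 bp downstream. It did not cover the start itself, and it covered 59.1% of the tagged peak. Parental 786-O had chr1:43424375-43424546 within it (score 8.13, rank 1260). Tagged A498 had 2 weak peaks in the same span, chr1:43424472-43424960 over the start (score 3.42, rank 6548) and chr1:43423866-43424053 (score 4.75, rank 4850), and parental A498 had none within 25 kb.

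Away from the start, SLC2A1 had 7 tagged 786-O peaks, all in the lower 50% of scores, and 3 of them overlapped MYC, beside 44.1% of all tagged 786-O peaks in that part of the list. The second highest tagged 786-O peak was upstream, chr1:43428338-43428580, 3.49 kb from the start (score 11.9, rank 10774), and overlapped a MYC peak. The next, chr1:43409006-43409208, was 15.6 kb downstream (score 6.57, rank 15506) and also overlapped one. The remaining 5 were downstream at 6.55 to 21.6 kb with scores of 2.76 to 5.55, and 1 of them overlapped MYC. The next 2 MYC peaks in score after the one at the start were upstream. They were chr1:43437463-43437746 at 12.6 kb (score 32.2, rank 5359) and chr1:43426978-43427374 at 2.13 kb (score 24.7, rank 7039). Neither had a GFP peak of any kind. Of the 7 remaining MYC peaks, with scores of 4.75 to 24.1, 3 overlapped a tagged 786-O peak. RefSeq places the divergent non-coding gene SLC2A1-DT on the upstream side.

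CA9 had no peak of any list over its start, and the nearest was 8.43 kb away, yet its window held the strongest ZNF395-eGFP peak of all 6 genes. In tagged 786-O this was chr9:35657717-35658859, 15.1 to 16.2 kb upstream, with a score of 229.9 and rank 21 of 20034. In tagged A498 it was chr9:35658083-35658534, with a score of 105.6 and rank 19 of 7718. Their midpoints were 20.5 bp apart. Neither parental list had a peak within 25 kb of CA9.

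The MYC peak at this place, chr9:35657549-35658078 (score 63.3, rank 2241), was offset from the ZNF395-eGFP peaks. It covered 31.7% of the tagged 786-O peak, its midpoint was 474.5 bp from that of the tagged peak, and it ended 4 bases short of the tagged A498 peak. CA9 lies in a crowded stretch: in the GRCh38 RefSeq annotation, used here only for the order of genes, 7 other genes lie within 25 kb, among them RMRP, the RNA of a processing ribonuclease, and CCDC107, ARHGEF39 and SIT1 on the upstream side. Since the builds differ, the peak was assigned to none of them, and its lying in the CA9 window does not tie it to CA9.

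The other CA9 peaks of tagged 786-O were weak. The one 8.54 kb upstream, chr9:35665022-35665375 (score 10.4, rank 11826), lay wholly within a MYC peak, chr9:35664985-35665481 (score 14.9, rank 10799). The one 17.0 kb downstream, chr9:35690947-35691126 (score 8.21, rank 13742), was 76 bases from the MYC peak chr9:35690485-35690870 (score 28.1, rank 6168) and did not touch it.

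CCND1, which encodes the cyclin that drives entry into the cell cycle and whose control by hypoxia-inducible factors in renal carcinoma runs through distant upstream enhancers, had strong ZNF395-eGFP peaks at its start and far upstream. The highest was chr11:69311892-69312466, 143.4 to 144.0 kb upstream, with a score of 88.7 and rank 477 in tagged 786-O. Tagged A498 had chr11:69311900-69312334 there (score 21.9, rank 405), its only CCND1 peak. MYC had chr11:69311838-69312463 (score 105.9, rank 942), whose midpoint was 28.5 bp from that of the tagged 786-O peak. Neither parental list had a peak at this site.

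The peak over the CCND1 start, chr11:69455396-69456189, had a score of 80.1 and rank 603 in tagged 786-O. It was the only start peak of the 6 genes in that list that had no parental 786-O peak. MYC covered 91.3% of it with chr11:69455251-69456120 (score 25.6, rank 6839). Tagged A498 had no peak within 25 kb of this start, the only one of the 6 genes for which that was so.

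The next in score, chr11:69235267-69235645, lay 220.2 to 220.6 kb upstream (score 41.0, rank 2581). It overlapped MYC (chr11:69235303-69235737, score 24.6, rank 7092) and also a parental 786-O peak, chr11:69235163-69235479 (score 7.81, rank 1338). A weaker tagged peak beside it, chr11:69234505-69234752 (score 10.4, rank 11883), overlapped a further parental peak, chr11:69234503-69234624 (score 3.48, rank 2951), and no MYC peak. A498 had no peak at either place.

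Of the 10 tagged 786-O peaks of CCND1 other than the 3 highest, 6 overlapped MYC, and their scores ran from 5.49 to 32.9. The highest of them, chr11:69469156-69469971, 13.3 kb downstream, overlapped MYC and a parental 786-O peak, chr11:69469261-69469597 (score 3.38, rank 2977). Another parental peak, chr11:69468836-69469047 (score 2.73, rank 3233), lay beside it. MYC was strong 4.20 kb upstream (chr11:69451148-69451672, score 85.4, rank 1370), where the tagged 786-O peak chr11:69451257-69451568 had a score of 16.2 and rank 8413 and a midpoint 2.5 bp away. The next MYC peak in score, chr11:69251798-69252193, 203.7 kb upstream (score 35.3, rank 4827), also had a tagged 786-O peak, chr11:69251908-69252244 (score 17.2, rank 7959). The 8 remaining MYC peaks had scores of 6.85 to 31.1, and 5 of them overlapped a tagged 786-O peak.

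**Figure D4:**
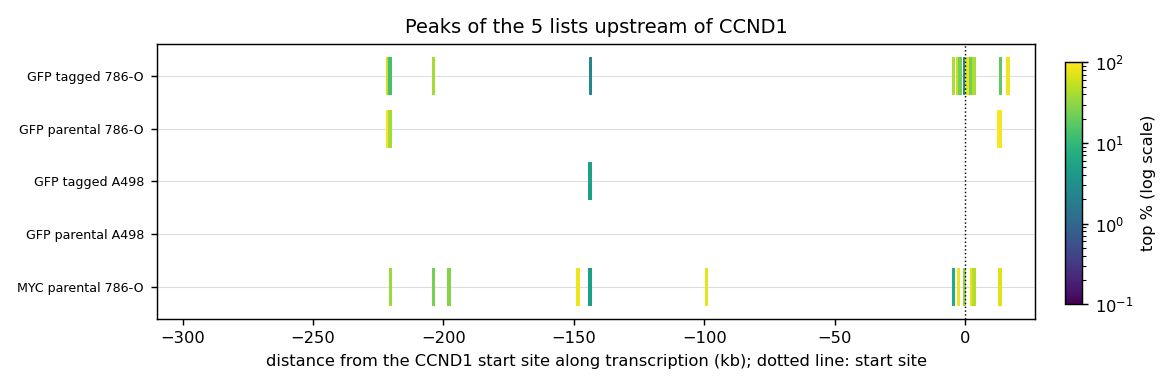
Peaks of the 5 lists (rows) by distance from the CCND1 start in kb (x axis); colour gives the rank in the peak's own list (log scale), and peaks are drawn at a least width of about 1.3 kb to be visible. The site near 144.0 kb upstream has a peak in tagged 786-O, tagged A498 and MYC and none in the parental lists.

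NDRG1, a gene of differentiation and stress, had a GFP peak over its start in all 4 GFP lists, the parental ones included. In tagged 786-O it was chr8:134308025-134310291, 2267 bp wide, with a score of 46.3 and rank 2092. The parental 786-O peak, chr8:134309342-134310154, had a score of 28.8 and rank 256 of 3361 and was among the highest 10% of its list. Tagged A498 had chr8:134309336-134309837 (score 8.66, rank 1880) and parental A498 chr8:134309370-134309557 (score 6.95, rank 1111). MYC had 2 peaks within the tagged 786-O peak, chr8:134309283-134310382 in part (score 58.7, rank 2495) and chr8:134308311-134308926 (score 10.9, rank 13486), and a weak one, chr8:134310507-134310739 (score 4.32), beside it.

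The other tagged 786-O peaks of NDRG1 had no parental peak. They were chr8:134307438-134307818 (score 4.84, rank 17650) and chr8:134306504-134307018 (score 8.18, rank 13766) downstream, without MYC, and chr8:134332614-134333400, 23.1 kb upstream (score 12.1, rank 10649). The last overlapped a MYC peak, chr8:134332755-134333319 (score 13.0, rank 11957), whose midpoint was 30 bp away.

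Joined where they overlap, the 104 peaks formed 54 sites. Of these, 29 were in 1 list only, 17 of them in tagged 786-O and 12 in MYC. Tagged 786-O and tagged A498 shared 9 sites, and 4 of these had no parental peak: the CA9 site 15 to 16 kb upstream, the CCND1 site 144.0 kb upstream, and the ADM sites 0.812 to 1.78 kb downstream and 10.8 to 11.7 kb upstream. Only the site over the NDRG1 start and the ADM site 2.12 to 3.37 kb downstream were in all 5 lists. Peaks were not joined into sites over the whole lists. These site counts therefore have no list-wide share beside them and are a description only.

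Of the 5 tagged 786-O peaks over a start, 4 overlapped a parental 786-O peak (VEGFA, SLC2A1, NDRG1 and ADM), and of the 37 other member peaks 4 did. The start peak of CCND1, the highest of the 5 in score at 80.1, did not. A share for start peaks over the whole list was not computed, and start peaks were among the widest of the list at VEGFA, NDRG1 and SLC2A1 (width ranks 34, 68 and 202 of 20034). All member peaks together gave 8 of 42 (19.0%, 95% Clopper-Pearson interval 8.60 to 34.1), and the whole tagged 786-O list gave 12.2%, which lies within that interval. Parental overlap rose with score in the whole list. In the upper 50% of scores it was 7 of 16 for member peaks (43.8%) and 19.2% for the list, in the lower 50% it was 1 of 26 (3.85%) and 5.11%, and in the top 10% it was 3 of 6 and 29.5%. How much of the tagged signal at these starts came without the tag was not tested, because no list gives read counts.

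MYC peaks overlapped 21 of the 42 tagged 786-O member peaks (50.0%, 34.2 to 65.8), where the whole list gave 60.6%. All 5 start peaks and 16 of the 37 others were among them. Here too, no share for start peaks over the whole list was computed. The overlap followed rank, as it did in the whole list: 14 of 16 member peaks in the upper 50% of scores and 7 of 26 in the lower 50% overlapped MYC, beside 77.2% and 44.1% of all peaks in those parts. In all, 17 of the 42 had no peak of any other list, 16 of them in the lower 50% of scores; the share in the whole list was 33.8%. Of the 36 MYC member peaks, 23 (63.9%, 46.2 to 79.2) overlapped a tagged 786-O peak, against 60.9% of all MYC peaks. Parental 786-O peaks, called against the same control library as MYC, overlapped MYC in 10 of 11 cases (90.9%, 58.7 to 99.8), against 60.5% of their whole list.

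Between the lines, 10 of the 11 tagged A498 member peaks (90.9%, 58.7 to 99.8) overlapped a tagged 786-O peak, the exception being the ADM peak 4.24 kb downstream. The whole tagged A498 list gave 56.6%, just below that interval. This depended on the overlap rule: with a 50% reciprocal overlap the share was 2 of 11 (18.2%) beside 18.6% of the list, and with midpoints within 200 bp it was 4 of 11 (36.4%) beside 40.8%. In the other direction 10 of 42 tagged 786-O member peaks (23.8%, 12.1 to 39.5) overlapped tagged A498, beside 20.5% of the list. Seen from the untagged cells, 8 of 11 parental 786-O member peaks overlapped a tagged 786-O peak (76.2% of their list) and 3 of 4 parental A498 member peaks a tagged A498 peak (35.1%). The same number, 3 of 4, overlapped a parental 786-O peak (46.9%), 1 at NDRG1 and 2 at ADM. Parental A498 peaks overlapped 3 of the 11 tagged A498 member peaks (27.3%, 6.02 to 61.0), at VEGFA, NDRG1 and ADM, against 6.93% of the list. MYC peaks of 786-O overlapped 8 of 11 (72.7%, 39.0 to 94.0), against 46.8%. By score, MYC overlapped 5 of 8 in the upper 50% (62.5%), beside 61.1% of the list there. In the lower 50% it overlapped 3 of 3, beside 32.5%. Peaks of 1 window are not independent of each other, so these intervals are too narrow for a statement about the genes.

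The limit of 25 kb fell in places without strong peaks. The last peaks inside it lay between 11.1 kb (ADM) and 23.2 kb (NDRG1) from the start, with scores of 3.63 to 13.0. The first peaks outside lay at 26.5 kb for SLC2A1 (MYC, score 9.23), 26.7 kb for CA9 (tagged 786-O, score 3.08), 28.7 kb for VEGFA (MYC) and 29.2 kb for CCND1 (tagged 786-O, score 6.69). For ADM and NDRG1 they lay at 43.7 kb (tagged 786-O, score 5.39) and 58.9 kb (MYC, score 20.6).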

How the data were processed

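ChIP-seq peak lists of 5 libraries were used; the 4 inputs have no list and entered only as the authors' controls. BWA, MACS2 and the hg19 build are named per the submitters' processing notes; what each did, and with which version and settings, is not stated in the sources used here. Peak names in the deposited files state that merged, sorted alignments processed by mapping quality were called against 1 control library each. Each peak has a score that the authors deposited, here taken to be −log10 of either p or q because the lowest value over the lists is 2.00; the files do not say which. Scores were ranked within a list and not compared in size between lists. Read counts are not in the lists, and the depth behind a peak is unknown.

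Peaks were assigned to a gene by any base within 25 kb of its start, and a peak was shared when 1 bp or more overlapped, with exact (Clopper-Pearson) 95% intervals. Overlap rules were tested on simulated data. Every peak is named where a gene had up to 5 in a list, otherwise the 3 of highest score, the one nearest the start and the range of the rest; the few further peaks of CCND1 and ADM that are named were chosen after their values were seen. Members, lists and motifs were chosen with earlier results of these data known. Promoters and gene order come from RefSeq GRCh38.p14. Exons, introns and further hypoxia targets need an hg19 annotation and were not analysed here. Groups, taken from titles, have 1 library each. Scripts ran in Python 3.11.15 with scipy 1.17.1, pandas 2.3.3 and, for figures, matplotlib 3.10.9.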

Additional observations from a re-analysis of the deposited data

How the results depend on the processing

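Of the 46 alternative values computed, 33 stayed within 1.5 times the reported count and 13 did not; none was added after the data were seen. With a 10 kb window, tagged 786-O had 26 member peaks. With the upper 50% of scores, member peaks numbered 16 in tagged 786-O, 7 in parental 786-O, 1 in parental A498 and 19 in MYC. With both lists of a pair so limited, which also removes the weaker partner peaks, tagged 786-O peaks at a MYC peak numbered 12, those at a tagged A498 peak 6, and tagged A498 peaks at a tagged 786-O peak 6. With a 50% reciprocal overlap, tagged 786-O peaks at a parental 786-O peak numbered 3 and those at a tagged A498 peak 2, and tagged A498 peaks at a tagged 786-O peak 2; this rule drops narrow peaks inside broad ones by its construction. With midpoints within 200 bp the last 2 counts were 4 and 4. Of tagged A498 member peaks, the share at tagged 786-O peaks was 75.0% with both lists in their upper 50% of scores, beside 70.7% of all peaks there. No paired analysis was possible because each group is 1 library. Without read counts, weak peaks near the calling threshold cannot be weighed.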
